A study of Mus musculus with 48 samples.

Results

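Adipokines are proteins that fat releases into blood or into its surroundings. The 10 genes described here are those of the adipokine set other than leptin: adiponectin (Adipoq), complement factor D or adipsin (Cfd), resistin (Retn), retinol binding protein 4 (Rbp4), neuregulin 4 (Nrg4), apelin (Apln), nicotinamide phosphoribosyltransferase (Nampt), chemerin (Rarres2), the chemerin receptor (Cmklr1) and adropin (Enho). They were chosen by symbol, through their Ensembl identifiers, and all 10 were found among the 56748 identifiers counted. RNA came from 3 tissues of male littermates, namely liver, brown adipose tissue (BAT) and the white fat of the epididymal depot (eWAT). The mice were either hepAGT-/- (here KO), in which angiotensinogen (Agt) was deleted in hepatocytes, or hepAGT+/+ (here WT). What drives the deletion and the age of the mice are not given in the sources used here. Every mouse, WT included, was fed for 12 weeks on a Western diet whose cholesterol content was 0.2% and whose milk fat content was 21%. Cages stood either at 20 to 22 °C (RT, room temperature) or at 30 °C (TN, thermoneutrality), where little heat has to be made. The 48 libraries form 12 groups of 4, one for each tissue, genotype and housing temperature, and KO and WT are compared within a housing temperature.

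White and brown adipocytes release adiponectin, adipsin and resistin in mice. Adiponectin raises insulin sensitivity through the receptors Adipor1 and Adipor2. Adipsin is the serine protease that starts the alternative complement pathway by cutting factor B. Hepatocytes are the main source of RBP4, which carries retinol in blood together with transthyretin, and they make much of the chemerin in blood. Chemerin attracts cells that carry Cmklr1, among them macrophages. Neuregulin 4 is an EGF-like ligand of ErbB receptors that brown fat releases, apelin is the peptide ligand of the receptor Aplnr, and Nampt makes a precursor of NAD inside cells and is also found outside them. Adropin is a small secreted peptide first described in liver and brain.

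The unit of a level is CPM, the counts of a gene per megacount (M) of its library's total, after TMM scaling of the libraries of a tissue. Changes are log2 differences of KO minus WT or TN minus RT with their SE, from edgeR's quasi-likelihood test, and a gene was called where the Benjamini-Hochberg adjusted p, taken over the whole table of that tissue, fell below 0.05. Liver libraries totalled 23.7 to 36.5 M counts, BAT libraries 25.3 to 39.4 M and eWAT libraries 28.7 to 43.7 M. Agt in liver averaged 368 ± 75.5 CPM (SD, n = 4) in WT and 167 ± 26.7 in KO at RT, and 410 ± 86.5 and 167 ± 33.8 at TN, so the KO livers still held Agt reads. Which part of the gene these reads cover was not analysed here. Several fat libraries held RNA of other tissues. Summed levels of 8 hepatocyte markers reached 2330 CPM in BAT and 4320 CPM in eWAT (49500 to 87400 CPM in liver), 8 skeletal muscle markers reached 7210 CPM in BAT, and 12 epididymis markers reached 969 CPM in eWAT WT RT replicate 18. These libraries are named beside the results they touch. The labels call the samples of a group biological replicates.

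The genes lie on 10 different chromosomes in the mouse build GRCm38 (GENCODE M21 annotation), and counts cover their exons. Adipoq is at chr16:23146536-23158028, Cfd at chr10:79890853-79892655, Retn at chr8:3655770-3660110 and Nampt at chr12:32819545-32853349, all on the plus strand. Rbp4 is at chr19:38116629-38125281, Nrg4 at chr9:55220222-55326844, Apln at chrX:48025146-48034853, Rarres2 at chr6:48569696-48572789, Cmklr1 at chr5:113612354-113650426 and Enho at chr4:41638144-41640324, all on the minus strand. Of the 10, 3 share exonic bases with a gene on the opposite strand: Rarres2 with Lrrc61, Nrg4 with Fbxo22 and the pseudogene Gm15625, and Enho with Dnaic1. The strand setting of the counting is not given in the sources used here, so reads in those stretches cannot be told apart between partners.

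The stretches before the start sites are shown for the members that moved with housing in BAT or with genotype in eWAT and have an entry in the RefSeq promoter table (GRCm38.p6, which held 8 of the 10 genes). Each run is the 250 bases before a start listed there, 5′ to 3′ on the gene's strand, and capitals mark matches of the motifs searched. The stretches shown for Rbp4, Nampt and Cmklr1 lie inside the gene spans given above, so these starts are not the outermost of their genes.
Rbp4, chr19:38124812-38125061, minus strand: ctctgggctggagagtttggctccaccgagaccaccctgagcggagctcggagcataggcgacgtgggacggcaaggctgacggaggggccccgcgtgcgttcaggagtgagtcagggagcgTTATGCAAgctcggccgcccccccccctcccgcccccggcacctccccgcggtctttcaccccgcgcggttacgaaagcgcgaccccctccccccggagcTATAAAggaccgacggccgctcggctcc
Nampt, chr12:32820085-32820334, plus strand: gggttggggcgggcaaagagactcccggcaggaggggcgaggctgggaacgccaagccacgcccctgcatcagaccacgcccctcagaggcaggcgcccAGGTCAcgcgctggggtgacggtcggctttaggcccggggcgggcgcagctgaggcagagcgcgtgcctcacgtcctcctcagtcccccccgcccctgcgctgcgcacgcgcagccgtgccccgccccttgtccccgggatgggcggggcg
Cfd, chr10:79890603-79890852, plus strand: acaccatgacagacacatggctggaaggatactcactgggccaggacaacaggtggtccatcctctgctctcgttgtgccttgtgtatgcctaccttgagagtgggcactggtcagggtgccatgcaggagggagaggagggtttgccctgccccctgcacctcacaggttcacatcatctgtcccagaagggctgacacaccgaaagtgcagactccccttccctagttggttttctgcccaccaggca
Apln, chrX:48034854-48035103, minus strand: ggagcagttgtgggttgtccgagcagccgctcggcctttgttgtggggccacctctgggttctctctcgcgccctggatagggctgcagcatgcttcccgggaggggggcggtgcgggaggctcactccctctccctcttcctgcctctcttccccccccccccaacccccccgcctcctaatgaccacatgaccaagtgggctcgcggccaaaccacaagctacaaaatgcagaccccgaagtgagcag
Cmklr1, chr5:113643604-113643853, minus strand: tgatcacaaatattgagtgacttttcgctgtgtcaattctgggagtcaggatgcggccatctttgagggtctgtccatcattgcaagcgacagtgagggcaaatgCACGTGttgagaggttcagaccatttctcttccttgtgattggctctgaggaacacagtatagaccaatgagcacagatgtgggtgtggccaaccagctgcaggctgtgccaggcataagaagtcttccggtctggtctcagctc
Retn, chr8:3655520-3655769, plus strand: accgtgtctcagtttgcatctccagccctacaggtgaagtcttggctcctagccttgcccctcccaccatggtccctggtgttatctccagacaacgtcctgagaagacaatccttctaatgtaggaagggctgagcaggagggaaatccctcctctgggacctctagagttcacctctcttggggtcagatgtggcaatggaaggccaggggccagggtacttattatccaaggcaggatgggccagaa
The motifs searched, on both strands, were a nuclear receptor half-site (AGGTCA), a C/EBP-type core (TTGCNNAA), an E-box (CACGTG), a cAMP response element (TGACGTCA) and a TATA box (TATAAA). Of 32851 promoters of the same length, 14.0%, 9.56%, 6.02%, 1.55% and 12.4% held them. The Rbp4 stretch, 1 of 2 listed for that gene, held a C/EBP-type core 128 to 121 bases and a TATA box 28 to 23 bases before the start, and the other stretch, at chr19:38125322-38125571 with a GC content of 40.8%, held 0 matches. Nampt held a half-site 151 to 146 bases before the start used here and Cmklr1 an E-box 145 to 140 bases before the start used here. No letters of the 5 motifs were found in the stretches of Cfd, Retn and Apln. The base composition differed widely, with a GC content of 75.6% for Nampt, 70.8% for Rbp4 and 65.2% for Apln against 50.4% for Cmklr1, 57.6% for Cfd and 54.8% for Retn. The sequence matches are a description and name no factor at work.

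The members differed first of all by tissue. For this comparison all 48 libraries were scaled together, and the levels are CPM on that joint scale. Adipoq, Cfd, Retn and Cmklr1 were highest in eWAT, Rbp4 and Rarres2 were highest in liver, and Nrg4 and Nampt were highest in BAT. Of the 10 members, 9 were called between eWAT and BAT, 10 between eWAT and liver and 10 between BAT and liver, where 60.3%, 73.8% and 68.6% of all genes were called. Adipoq ran from 2031 to 3894 CPM in the 16 eWAT libraries (median 2646) and from 539 to 1303 in BAT (median 825). In liver it had 0 counts in 15 of 16 libraries, and a floor of 3 counts per library allows up to 0.127 counts per megacount of a library's unscaled total. Retn ran from 910 to 2666 CPM in eWAT and from 12.4 to 162 in BAT, a log2 difference of 4.76 (SE 0.51, edgeR adjusted p 2.39e-10). Its 16 liver libraries held 0 counts in 9. Cfd was at a median of 2204 CPM in eWAT, 377 in BAT and 75.1 in liver, with every liver library at 6.08 CPM or above. Adipsin RNA was thus counted in 15 livers in which adiponectin RNA was not detected.

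Cmklr1 had the largest difference between the fat depots beside Retn. Its level ran from 145 to 284 CPM in eWAT, from 2.32 to 27.7 in BAT and from 1.40 to 7.31 in liver. The log2 difference of eWAT minus BAT was 4.30 (SE 0.20, edgeR adjusted p 2.7e-21). Its ligand had another order. Rarres2 was at a median of 553 CPM in liver, 429 in eWAT and 115 in BAT, and Rbp4 at 3603, 694 and 130. The order in BAT was the other way for Nampt, with medians of 265 CPM there, 115 in liver and 78.7 in eWAT, and for Nrg4, with 168 in BAT, 70.2 in eWAT and 17.7 in liver. Nrg4 in eWAT was below BAT by a log2 difference of -1.12 (SE 0.16, edgeR adjusted p 1.68e-07). Enho was low in all tissues, with medians of 7.13 CPM in eWAT, 2.30 in liver and 1.33 in BAT. The difference of BAT from liver in Enho, -0.58 (SE 0.23, edgeR adjusted p 0.0263), lost its call without liver WT RT replicate 15 (adjusted p 0.0666) or liver WT TN replicate 24 (0.0516), and in a fit of only these tissues (0.0595). Apln was the 1 member that edgeR did not separate between the fat depots, at 2.97 to 16.7 CPM in eWAT and 1.79 to 16.1 in BAT (log2 difference 0.41, SE 0.35, adjusted p 0.329). In liver Apln had 0 counts in 11 of 16 libraries.

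Levels of different genes can be set side by side only per length. On the joint scale and per kb of exon, the order in eWAT was Cfd at 2980 CPM per kb, Adipoq at 1981, Retn at 952 and Rbp4 at 547. In BAT Adipoq led at 631 CPM per kb, followed by Cfd at 568, Rbp4 at 118 and Nampt at 55.1. In liver Rbp4 led at 2689 CPM per kb, followed by Rarres2 at 212 and Cfd at 97.0. Apln and Enho were the lowest in both fat depots, at 2.36 and 1.08 in BAT and at 2.68 and 5.40 in eWAT, while in liver Enho, at 2.30, stood above Cmklr1, at 1.13.

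**Figure D1:**
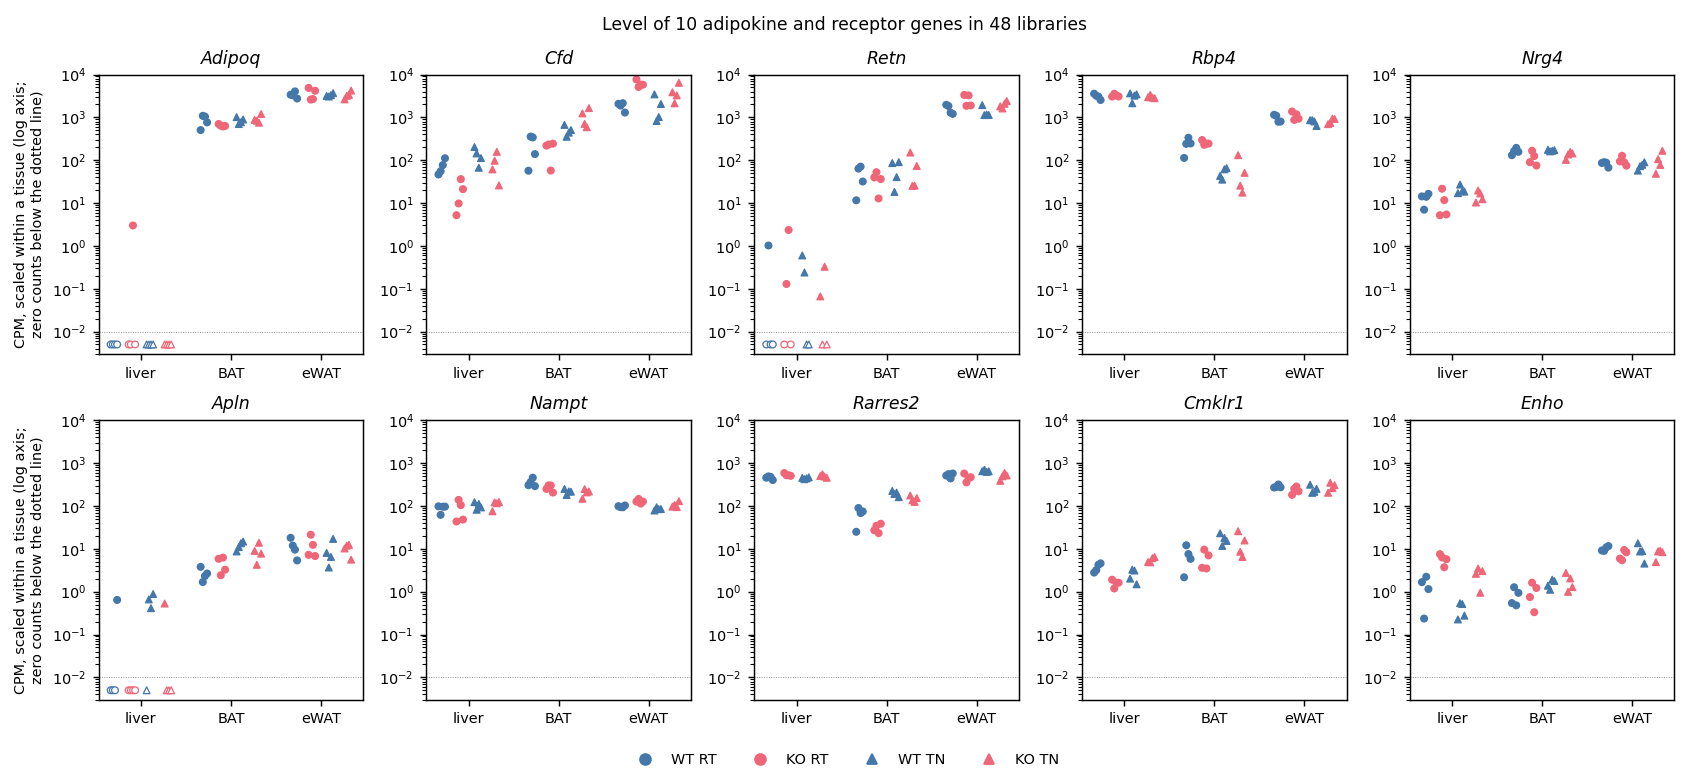
Each panel plots 1 gene as CPM scaled within a tissue (log axis) in the 48 libraries, with the groups of a tissue in the order WT RT, KO RT, WT TN, KO TN (circles RT, triangles TN, blue WT, red KO); open symbols under the dotted line are libraries with 0 counts. Adipoq is at 0 in 15 of 16 liver libraries, and Rbp4 in BAT stands lower at TN than at RT.

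In eWAT the genotype comparison asked which adipokines differ between hepAGT-/- and hepAGT+/+ mice. Cfd rose in KO. At RT the WT libraries (replicates 12, 13, 15 and 18) were at 2072, 1886, 2141 and 1296 CPM and the KO libraries (replicates 9, 10, 16 and 19) at 5802, 7670, 5124 and 5794 CPM. All 4 KO libraries stood above all 4 WT libraries, with means of 6097 ± 1096 CPM (SD, n = 4) and 1849 ± 384 CPM. The change was 1.72 on the log2 scale (SE 0.42, edgeR adjusted p 0.0315). At TN the WT libraries (replicates 6, 7, 8 and 23) were at 823, 1019, 2052 and 3447 CPM and the KO libraries (replicates 3, 4, 5 and 21) at 2127, 3261, 6419 and 3853 CPM. The groups overlapped through WT replicate 23, and the change of 1.09 (SE 0.41, adjusted p 0.243) was not called. Averaged over both temperatures Cfd rose by 1.41 (SE 0.29, adjusted p 0.00858). The interaction of genotype and housing for Cfd was -0.63 (SE 0.57, adjusted p 0.82), so it was not detectable whether KO mattered more at one temperature.

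Nampt rose with Cfd, by less. At RT its 4 WT libraries were at 99.1, 94.0, 93.4 and 103 CPM and its 4 KO libraries at 127, 127, 146 and 114 CPM (replicates in the same order as for Cfd). No KO library was as low as a WT library, and the change was 0.40 (SE 0.11, edgeR adjusted p 0.0415). At TN the WT libraries ran from 78.5 to 93.6 CPM and the KO libraries from 94.3 to 130, again without overlap, with a change of 0.32 (SE 0.11, adjusted p 0.177). Averaged over housing the change was 0.36 (SE 0.08, adjusted p 0.00627). In edgeR Retn passed only as the average over housing, at 0.64 (SE 0.17, adjusted p 0.0256), and DESeq2 also called it at RT. Its RT libraries were at 1966, 1848, 1285 and 1206 CPM in WT and 1896, 3336, 1859 and 3261 CPM in KO, and its TN libraries at 1131, 1165, 1135 and 1929 CPM in WT and 1616, 2079, 2405 and 1811 CPM in KO. Single WT libraries, replicates 12 and 23, reached into the KO range.

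The other members of eWAT did not pass. Adipoq averaged 3362 ± 530 CPM (SD, n = 4) in WT and 3583 ± 1128 in KO at RT, and 3308 ± 268 and 3350 ± 661 at TN. Its changes were 0.09 (SE 0.19) and 0.02 (SE 0.19). Rbp4 changed by 0.19 (SE 0.17, adjusted p 0.652) at RT and 0.06 (SE 0.17, adjusted p 0.913) at TN. Rarres2 at TN had WT libraries at 626 to 704 CPM above KO libraries at 388 to 590 CPM, and its change of -0.40 (SE 0.14) had an adjusted p of 0.213. The averaged genotype changes of Nrg4, Apln, Cmklr1 and Enho were 0.32, 0.14, -0.04 and -0.34, with adjusted p from 0.348 to 0.895.

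By count, edgeR called 2 of 10 members at RT (4.34% of all genes), 0 at TN (0.586% of all genes, 4 members at an unadjusted p under 0.05 and 0 called by DESeq2) and 3 averaged over housing (8.46% of all genes). For the interaction it called 0 (0% of all genes, 0 members at an unadjusted p under 0.05, 0 by DESeq2). The RT call of Cfd was lost without KO RT replicate 9, 10 or 19 or WT RT replicate 12, 13, 15 or 18, at changes of 1.62 to 1.81 and adjusted p of 0.053 to 0.105. That of Nampt was lost without KO RT replicate 9, 10 or 16, WT RT replicate 12, 13, 15 or 18 or WT TN replicate 7, at changes of 0.35 to 0.46 and adjusted p of 0.0507 to 0.0981. The averaged call of Retn was lost without KO RT replicate 19, KO TN replicate 5, WT RT replicate 18 or WT TN replicate 6 or 7, at adjusted p of 0.0521 to 0.0601.

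Markers of other cells differed between the eWAT groups too. The summed level of 8 macrophage markers was 1020 to 1410 CPM in WT RT, 792 to 1060 in KO RT, 1580 to 2540 in WT TN and 1220 to 1430 in KO TN. That of 10 mature adipocyte markers was 38300 to 45400 CPM in WT RT, 40400 to 46200 in KO RT, 39100 to 41200 in WT TN and 34600 to 43600 in KO TN, overlapping throughout. The part of the macrophage difference in these results was not tested. In bulk tissue, fewer cells of a type and less RNA per cell cannot be told apart. Without the 5 eWAT libraries whose hepatocyte markers were above 1000 CPM (KO RT 16 and 19, WT RT 13 and 18, WT TN 8), the change of Cfd at RT was 1.69 (adjusted p 0.386), that of Nampt 0.41 (0.313) and the averaged one of Retn 0.59 (0.165), with 2 libraries left in each RT group. The averaged changes of Cfd and Nampt were then 1.42 (0.162) and 0.36 (0.071). WT RT replicate 18, the library with epididymis markers at 969 CPM, was also the lowest of its group in Cfd and Retn, and without it the RT change of Cfd was 1.62 (0.105).

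**Figure D2:**
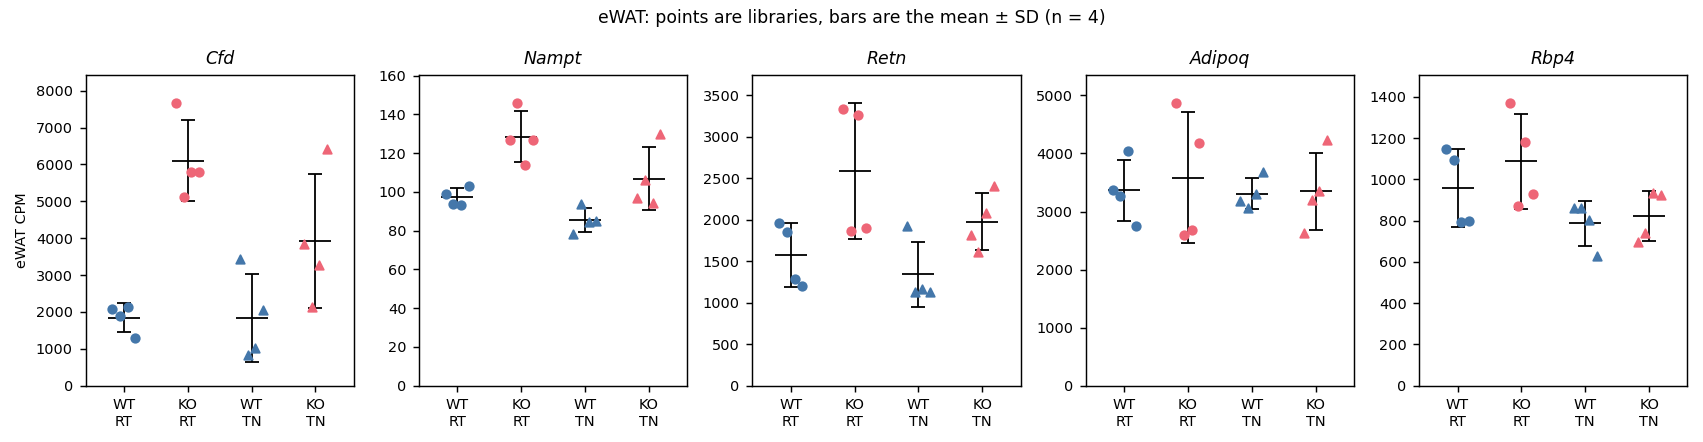
Levels in eWAT (CPM scaled within the tissue, linear axes from 0) of 5 genes by group, with libraries as points and the mean ± SD of 4 libraries as bars. Cfd at RT runs from 1296 to 2141 CPM in WT and from 5124 to 7670 CPM in KO, while the Adipoq groups overlap.

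Housing left the members of eWAT without a called change. In WT, edgeR called 0 of 10 (0% of all genes, 1 member at an unadjusted p under 0.05, 0 by DESeq2), in KO 0 of 10 (1.74% of all genes, 2 members at an unadjusted p under 0.05, 0 by DESeq2), and averaged over genotype 0 of 10 (2.22% of all genes, 3 members at an unadjusted p under 0.05). DESeq2 called 2 in that average, Nampt and Rbp4, whose edgeR changes were -0.23 (SE 0.08, adjusted p 0.122) and -0.34 (SE 0.12, adjusted p 0.145). Rarres2 in WT ran from 440 to 575 CPM at RT and from 626 to 704 at TN, without overlap, at a change of 0.33 (SE 0.14, adjusted p 0.631).

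Of 10 other genes of the alternative complement pathway, all tested in eWAT, 2 were called at RT (4.34% of all genes) and 2 at TN (0.586% of all genes), each time the anaphylatoxin receptors C3ar1 and C5ar1, both lower in KO. Macrophages carry both receptors, and the summed macrophage markers given above were also lower in KO at TN, where the groups did not overlap, and at RT, where they did. Their part in this result was not tested. C3ar1 averaged 25.2 ± 7.08 CPM (SD, n = 4) in WT and 12.7 ± 1.42 in KO at RT (log2 change -0.99, SE 0.24, edgeR adjusted p 0.0275). The median change of these 10 genes was -0.26 at RT and -0.55 at TN, with 0.00 and 0.01 for all genes. Averaged over housing Cfb, the factor that adipsin cuts, was called as well, at -1.05. Of the receptors, carriers and binding partners of the members, 14 of 16 were tested and 0 were called at RT or at TN. Of 28 other secreted proteins of fat, 24 were tested. Those called at RT were all lower in KO, among them Sfrp5, a secreted Wnt antagonist, at 311 ± 145 CPM (SD, n = 4) in WT and 38.4 ± 22.2 in KO, and C1qtnf1 at 59.1 ± 20.1 and 26.1 ± 6.66. At TN 1 was called, Metrnl, lower in KO by -0.80 on the log2 scale. The median of the 24 was -0.41 at RT and -0.10 at TN.

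In BAT several members changed with housing. At TN Rarres2, Apln and Cfd stood higher and Rbp4 and Nampt lower than at RT. In WT, 4 of 10 members were called (32.5% of all genes), in KO 3 of 10 (15.2% of all genes) and averaged over genotype 6 of 10 (38.5% of all genes), so the share of members called is to be read against a large share of all genes. The median change of all tested genes was 0.11 in WT and 0.04 in KO.

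Chemerin RNA rose most plainly. Some exonic bases of Rarres2 are shared with Lrrc61, as given above, and the part of Lrrc61 reads in its counts was not tested. In WT the RT libraries (replicates 12, 15, 17 and 18) held Rarres2 at 25, 89.7, 68.5 and 74.6 CPM and the TN libraries (replicates 1, 6, 7 and 24) at 161, 191, 206 and 225 CPM. In KO the RT libraries (replicates 9, 10, 14 and 19) were at 38.5, 27.2, 34.6 and 23.3 CPM and the TN libraries (replicates 2, 3, 4 and 5) at 176, 136, 125 and 154 CPM. The groups did not overlap in either genotype. The change was 1.60 (SE 0.28, edgeR adjusted p 0.000435) in WT and 2.26 (SE 0.29, adjusted p 7.61e-05) in KO. Its receptor Cmklr1 was at 6.92 ± 4.12 CPM (SD, n = 4) in WT RT, 17.0 ± 4.81 in WT TN, 5.93 ± 2.94 in KO RT and 14.1 ± 8.71 in KO TN. edgeR called it only as an average over genotype, at 1.28 (SE 0.37, adjusted p 0.013), and the groups overlapped in both genotypes. DESeq2 also called it in WT and in KO.

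Adipsin RNA in BAT was at 56.8, 356, 340 and 139 CPM in WT RT and at 507, 353, 440 and 668 CPM in WT TN. In KO it was at 244, 219, 233 and 57.4 CPM at RT and at 1238, 705, 590 and 1647 CPM at TN (replicates in the same order as for Rarres2). The KO groups stood wholly apart, while in WT 1 RT library reached just into the TN range. The change was 2.47 (SE 0.59, edgeR adjusted p 0.0116) in KO and 1.14 (SE 0.56, adjusted p 0.137) in WT. The interaction was 1.33 (SE 0.79, adjusted p 0.558), so the change was not shown to differ between genotypes.

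Apln, the ligand of Aplnr, was low in BAT and rose in WT. Its WT libraries were at 3.80, 1.68, 2.32 and 2.66 CPM at RT and at 14.8, 11.0, 13.5 and 8.70 CPM at TN, which rest on 50 to 112 and on 290 to 521 counts. No TN library was near the RT range, and the change was 2.20 (SE 0.37, edgeR adjusted p 0.00024). In KO the libraries were at 3.26, 5.86, 2.42 and 6.24 CPM at RT and at 8.97, 4.25, 13.9 and 7.73 CPM at TN. These overlapped, at a change of 0.97 (SE 0.35, edgeR adjusted p 0.0735), which DESeq2 called. The interaction of -1.23 (SE 0.50) had an adjusted p of 0.47.

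Rbp4 fell in both genotypes. In WT it was at 113, 241, 334 and 246 CPM at RT and at 65.5, 35.2, 61.3 and 43.0 CPM at TN. In KO it was at 244, 296, 229 and 245 CPM at RT and at 131, 25.5, 17.5 and 50.8 CPM at TN. All TN libraries stood below all RT libraries of their genotype, at changes of -2.19 (SE 0.53, edgeR adjusted p 0.00659) in WT and -2.17 (SE 0.53, adjusted p 0.0137) in KO. The highest TN library, KO replicate 2, also held the most hepatocyte markers (2330 CPM) and the most skeletal muscle markers (7210 CPM) of BAT. Hepatocytes carry much Rbp4, and the part of RNA from other tissues in this level was not tested. Without KO TN replicate 2 the change in KO was -3.02 (adjusted p 0.000308). In a fit of only the 8 KO libraries the call in KO was lost, at -2.14 (adjusted p 0.0664).

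Nampt fell in WT, from 306, 363, 458 and 291 CPM at RT to 216, 181, 219 and 250 CPM at TN, a change of -0.71 (SE 0.19, edgeR adjusted p 0.00759) without overlap. In KO it was at 206 to 303 CPM at RT and 148 to 248 at TN, at a change of -0.36 (SE 0.19, adjusted p 0.221). Nrg4, the ligand known from brown fat, did not pass, at 161 ± 26.1 CPM (SD, n = 4) in WT RT and 168 ± 6.51 in WT TN. Its change was 0.06 (SE 0.20, adjusted p 0.841) in WT and 0.24 (SE 0.21, adjusted p 0.514) in KO. Adipoq, Retn and Enho did not pass in edgeR in either genotype or as an average over genotype. DESeq2 called Enho in that average. Adipoq in KO ran from 614 to 699 CPM at RT and from 752 to 1199 at TN, without overlap, at a change of 0.50 (SE 0.21, adjusted p 0.128). Retn had wide groups, from 11.6 to 70.8 CPM in WT RT and from 25.2 to 151 in KO TN, and Enho rested on 10 to 107 counts per library.

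**Figure D3:**
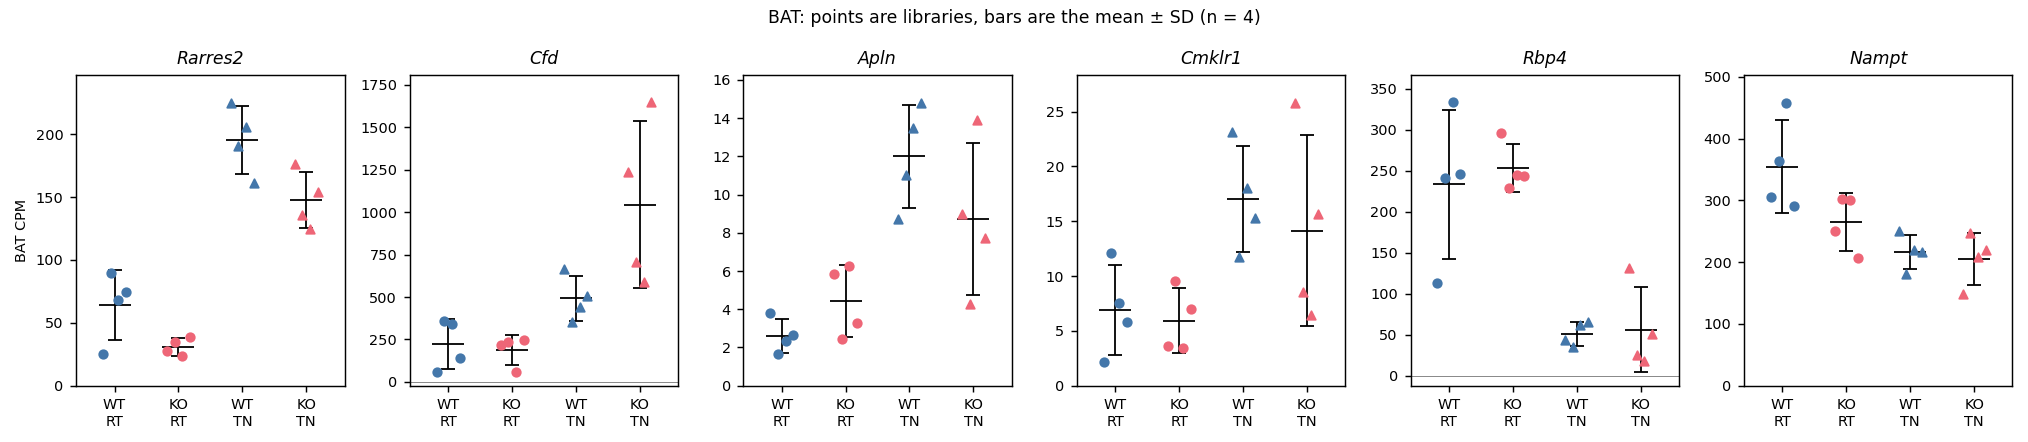
Levels in BAT (CPM scaled within the tissue, linear axes) of 6 genes by group, with libraries as points and the mean ± SD of 4 libraries as bars. Rarres2 stands at 23.3 to 89.7 CPM at RT and 125 to 225 CPM at TN, and Rbp4 at 113 to 334 CPM at RT and 17.5 to 131 CPM at TN.

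Markers of several cell types moved with housing in BAT as well. Summed macrophage markers were at 59.0 to 159 CPM in WT RT, 270 to 609 in WT TN, 69.8 to 84.7 in KO RT and 226 to 345 in KO TN. Summed endothelial markers (8 genes) were at 179 to 531 CPM in WT RT, 336 to 1100 in WT TN, 490 to 1030 in KO RT and 765 to 1350 in KO TN. Brown adipocyte markers (8 genes, Ucp1 among them) ran from 7920 to 13300 CPM at RT and from 3430 to 7500 at TN, while mature adipocyte markers ran from 16700 to 25300 CPM with the groups overlapping. None of the marker lists had a gene at 0 across a BAT group except mesothelium and epididymis. The part of these shifts in the changes of Rarres2, Cmklr1, Cfd and Apln was not tested.

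BAT libraries rich in markers of other tissues were also left out. Without the 6 BAT libraries above 1000 CPM of muscle markers (KO RT 14 and 19, KO TN 2 and 5, WT TN 6 and 24), Rarres2 kept its calls at 1.53 in WT and 2.03 in KO (edgeR adjusted p 0.0173 and 0.048). Rbp4 kept them at -1.87 and -3.61 (0.00278 and 0.000647), while Cfd in KO fell short at 1.52 (0.344). Without the 5 BAT libraries above 500 CPM of hepatocyte markers (KO RT 9, KO TN 2 and 5, WT TN 1 and 7), Cfd in KO was at 1.95 (0.239) and Nampt in WT at -0.69 (0.0631), and Rarres2 and Rbp4 kept their calls in both genotypes. Averaged over genotype, 4 members were called under either choice, but not the same 4. Apln, Rarres2 and Rbp4 kept their calls under both. Without the muscle-rich libraries the remaining call was of a member not called with all libraries. The averaged change of Cmklr1 was 0.91 under both (0.121 without the muscle-rich and 0.174 without the hepatocyte-rich libraries), that of Cfd 1.31 (0.094) and 1.59 (0.0783). The averaged change of Nampt was -0.33 (0.15) without the muscle-rich libraries and kept its call without the hepatocyte-rich ones. Leaving out 1 library at a time ended no call of a member by housing in BAT.

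Genotype left the members of BAT without a call. edgeR called 0 of 10 at RT (0.0887% of all genes, 4 members at an unadjusted p under 0.05), 0 at TN (0% of all genes, 0 members at an unadjusted p under 0.05, 0 by DESeq2), 0 averaged over housing (0% of all genes, 2 members at an unadjusted p under 0.05) and 0 for the interaction (0% of all genes, 1 member at an unadjusted p under 0.05, 0 by DESeq2). DESeq2 called Rarres2 at RT and averaged over housing. Rarres2 at RT was lower in KO, 30.9 ± 6.91 against 64.5 ± 27.8 CPM (SD, n = 4), and its edgeR change of -1.06 (SE 0.28) had an adjusted p of 0.101. WT replicate 12, at 25 CPM, lay inside the KO range. That library was also the lowest WT RT one in Cfd (56.8 CPM), Retn (11.6 CPM) and Cmklr1 (2.17 CPM). Nrg4 at TN ran from 161 to 175 CPM in WT and from 102 to 156 in KO, without overlap, at a change of -0.33 (SE 0.21, adjusted p 0.999).

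By housing in BAT, 32.5% of all genes were called in WT and 15.2% in KO, with median changes of 0.11 and 0.04, and the lists below are to be read against these. Of the 15 receptors, carriers and binding partners tested, 4 were called in WT, all higher at TN: the apelin receptor Aplnr at 2.32 (SE 0.79, edgeR adjusted p 0.0405), Tlr4 at 0.89, the adiponectin binding protein Cdh13 at 0.67 and Cap1 at 0.29. In KO 1 was called, Tlr4 at 0.76. The median change of the 15 was 0.64 in WT and 0.19 in KO. Aplnr went from 10.9 ± 9.93 CPM (SD, n = 4) to 54.5 ± 33.9 with overlapping groups. Of 9 other genes of the alternative complement pathway tested, 6 were called in WT, 5 of them higher, led by C3ar1 at 2.22, C5ar1 at 1.51, Cd55 at 1.36 and Cd46 at 1.22. Macrophages carry C3ar1 and C5ar1, and the summed macrophage markers given above were also higher at TN in both genotypes, without overlap. Their part in the changes of these lists was not tested. Complement C3 was lower at TN, at 357 ± 115 CPM (SD, n = 4) in RT and 201 ± 10.1 in TN. In KO 4 were called, all higher, and the medians were 1.22 in WT and 1.08 in KO. Of 24 other secreted proteins tested, 10 were higher and 2 lower in WT, and 6 higher and 2 lower in KO. Among those called in WT were Bmp8b, at 2.09 ± 1.13 CPM (SD, n = 4) in RT and 0.25 ± 0.197 in TN, and the monocyte attractant Ccl2, at 1.47 ± 0.398 and 6.6 ± 2.14. C1qtnf12 was the other called decrease in both genotypes, and the medians were 1.24 and 0.73.

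In liver the members with a call were Enho and Cmklr1, both at low levels. Enho was higher in KO at both temperatures. At RT the WT libraries (replicates 11, 12, 15 and 18) were at 1.67, 0.236, 2.23 and 1.15 CPM and the KO libraries (replicates 9, 10, 16 and 19) at 5.73, 7.52, 6.31 and 3.73 CPM. At TN the WT libraries (replicates 1, 6, 7 and 24) were at 0.225, 0.515, 0.276 and 0.539 CPM and the KO libraries (replicates 2, 4, 5 and 22) at 2.61, 0.946, 3.02 and 3.47 CPM. The groups stood apart at both temperatures, on 6 to 73 counts per library in WT and 29 to 233 in KO. The change was 2.13 (SE 0.52, edgeR adjusted p 0.125) at RT, 2.68 (SE 0.55, adjusted p 0.0115) at TN and 2.40 (SE 0.38, adjusted p 0.000959) averaged over housing. DESeq2 also called it at RT (adjusted p 0.00862). Its interaction was 0.55 (SE 0.72, adjusted p 0.924). Leaving out 1 library at a time ended neither the TN call nor the averaged one. By housing, Enho in KO was lower at TN without overlap, at a change of -1.21 (edgeR adjusted p 0.368), while the WT groups overlapped. Its housing change averaged over genotype had an edgeR adjusted p of 0.0816, and DESeq2 called it.

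Cmklr1 went in opposite directions. At RT the WT libraries were at 2.79, 3.19, 4.25 and 4.59 CPM and the KO libraries at 1.62, 1.90, 1.19 and 1.62 CPM. At TN the WT libraries were at 2.02, 3.12, 1.49 and 3.26 CPM and the KO libraries at 4.93, 6.07, 6.44 and 4.85 CPM (replicates in the same order as for Enho). KO thus lay wholly below WT at RT and wholly above it at TN. The change was -1.22 (SE 0.32, edgeR adjusted p 0.142) at RT and 1.17 (SE 0.32, adjusted p 0.0454) at TN. Between temperatures it was 1.81 (SE 0.33, adjusted p 0.0308) in KO and -0.58 (SE 0.32, adjusted p 0.751) in WT. The interaction of 2.39 (SE 0.45) had an unadjusted p of 2.57e-05 and an adjusted p of 0.399 in edgeR, and DESeq2 called it (adjusted p 0.000876). The TN call was lost without WT TN replicate 1, 6 or 7, KO TN replicate 2, 4, 5 or 22, KO RT replicate 10 or 19 or WT RT replicate 11, at changes of 0.99 to 1.30 and adjusted p of 0.0504 to 0.133. The KO housing call was lost without KO RT replicate 9, 16 or 19 or KO TN replicate 4 or 5, at 1.70 to 1.82 and adjusted p of 0.0671 to 0.129. Summed macrophage markers in liver were at 237 to 333 CPM in WT RT, 178 to 301 in KO RT, 237 to 276 in WT TN and 305 to 708 in KO TN. Their part in the result was not tested.

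Cfd in liver did not pass in edgeR. At RT it ran at 46.4, 55.4, 76.8 and 111 CPM in WT and at 21.1, 5.20, 9.78 and 36.2 CPM in KO, with every KO library under every WT library. The change was -2.0 (SE 0.65, adjusted p 0.29). At TN the groups overlapped, at 131 ± 57.3 CPM (SD, n = 4) in WT and 85.2 ± 55.9 in KO (change -0.63, SE 0.62, adjusted p 0.691). The housing change in KO was 2.24 (SE 0.66, adjusted p 0.202), which DESeq2 called. DESeq2 also called Cfd averaged over housing and averaged over genotype, at edgeR adjusted p of 0.121 and 0.192. Adipoq was at 0 in 15 of these 16 libraries, KO RT replicate 19 holding 3.00 CPM and the highest Cfd of its group.

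Rbp4 and Rarres2, the members at the highest level in liver, did not pass. Rbp4 was at 3089 ± 424 CPM (SD, n = 4) in WT RT, 3233 ± 228 in KO RT, 3110 ± 672 in WT TN and 3000 ± 239 in KO TN, with genotype changes of 0.07 and -0.05 (SE 0.15 each). Rarres2 was at 404 to 492 CPM in WT RT and 507 to 589 in KO RT, without overlap, and the change was 0.23 (SE 0.11, adjusted p 0.503). The TN libraries lay at 423 to 468 CPM in WT and 456 to 552 in KO. Nampt changed by -0.08 (SE 0.32) at RT and 0.09 (SE 0.32) at TN, and Nrg4 by -0.23 (SE 0.40) and -0.47 (SE 0.40). Nrg4 in WT ran from 7.01 to 16.4 CPM at RT and from 17.0 to 27.0 at TN, without overlap, at a change of 0.66 (SE 0.40, adjusted p 0.813). Retn and Apln were at 0 in 9 and 11 of the 16 libraries, and Adipoq did not pass the filter on low counts.

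By count, edgeR called 2 of 9 tested members by genotype at TN (3.18% of all genes) and 1 averaged over housing (5.19% of all genes). At RT it called 0 (0.0853% of all genes, 4 members at an unadjusted p under 0.05, 2 called by DESeq2) and for the interaction 0 (0% of all genes, 1 member at an unadjusted p under 0.05, 1 by DESeq2). By housing it called 1 in KO (0.114% of all genes), 0 in WT (0.0227% of all genes, 1 member at an unadjusted p under 0.05, 0 by DESeq2) and 0 averaged over genotype (0.279% of all genes, 4 members at an unadjusted p under 0.05, 2 by DESeq2). Of the receptors, carriers and binding partners, the neuregulin receptor Erbb4 was called lower in KO averaged over housing, at -0.85. Of 10 alternative complement genes, 1 was called in that average, Cfb at -0.76, and of 22 other secreted proteins 0 were called in any of the 7 liver comparisons.

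**Figure D4:**
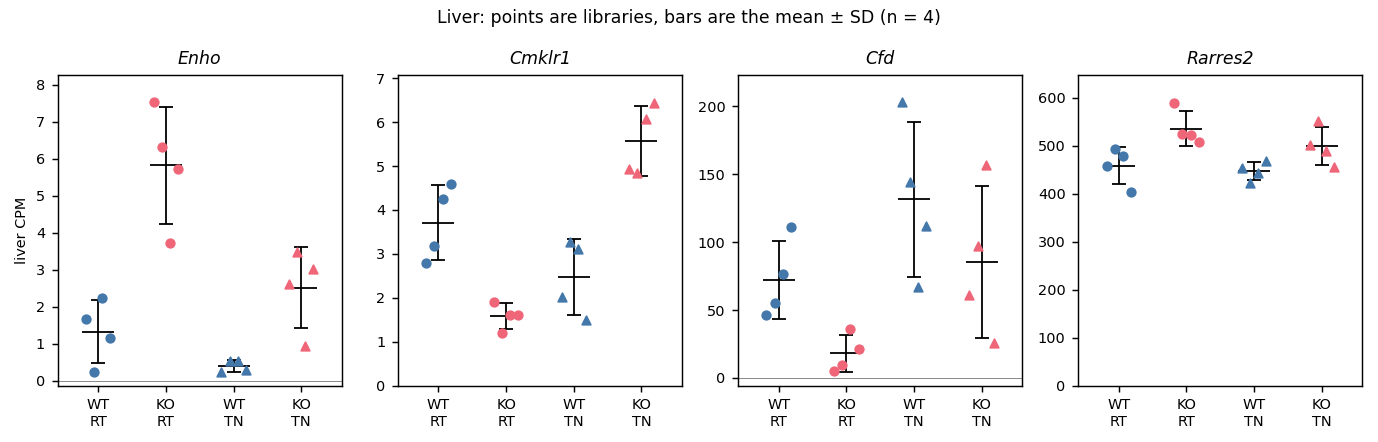
Levels in liver (CPM scaled within the tissue, linear axes) of 4 genes by group, with libraries as points and the mean ± SD of 4 libraries as bars. Cmklr1 in KO stands at 1.19 to 1.90 CPM at RT and 4.85 to 6.44 CPM at TN, and Enho in KO is above WT at both temperatures.

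Whether a change differed between tissues was tested over all 48 libraries, taken as independent. With the replicate number as a block, edgeR called none of the genotype differences named below. The adjusted p was then 0.223 for Cfd, 0.491 for Enho and 0.208 for Rarres2. Cfd by genotype at RT went up in eWAT and down in liver, a difference of 3.71 on the log2 scale (SE 0.81, edgeR adjusted p 0.0406), the 1 member of 10 called there (0.278% of all genes). That call was lost without eWAT KO RT replicate 9, 10 or 19, eWAT WT RT replicate 12, 13, 15 or 18, liver KO RT replicate 9, 10 or 16 or liver WT RT replicate 15 or 18, at differences of 3.4 to 3.79 and adjusted p of 0.0577 to 0.094. Enho by genotype at TN differed by -2.84 for eWAT minus liver (SE 0.66, adjusted p 0.0185), 1 of 10 called (1.62% of all genes). Rarres2 by genotype at RT differed by -1.31 for BAT minus liver (SE 0.28, adjusted p 0.0236), 1 of 10 called (0.393% of all genes). This was lost without BAT KO RT replicate 10 or BAT WT RT replicate 15, 17 or 18, at -1.29 to -1.11 and adjusted p of 0.0502 to 0.0856. No member was called by edgeR for BAT minus liver at TN (0.434% of all genes, 3 members at an unadjusted p under 0.05, 1 by DESeq2) or for eWAT minus BAT at RT (2.79% of all genes, 3 members at an unadjusted p under 0.05, 1 by DESeq2). The same held for eWAT minus BAT at TN (0% of all genes, 0 members at an unadjusted p under 0.05, 0 by DESeq2).

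Without a replicate block, some housing changes of BAT were called as different from those of eWAT. In WT, 3 of 10 members were called for BAT minus eWAT (13.9% of all genes): Rbp4 at -1.90 (SE 0.47, edgeR adjusted p 0.00443), Rarres2 at 1.27 (SE 0.28, adjusted p 0.00163) and Cmklr1 at 1.52 (SE 0.50, adjusted p 0.0342). In KO, 3 of 10 were called (2.88% of all genes): Cfd at 3.13 (SE 0.80, adjusted p 0.023), Rbp4 at -1.76 (SE 0.47, adjusted p 0.029) and Rarres2 at 2.16 (SE 0.28, adjusted p 5.68e-06). With the replicate number as a block, edgeR called no member in WT (adjusted p 0.0528 for Rarres2, 0.0537 for Rbp4 and 0.0887 for Cmklr1). In KO it then called Rbp4 and Rarres2 but not Cfd (0.154). Without the block, Rarres2 in both genotypes and Rbp4 in WT kept their calls whichever library was left out. Cmklr1 lost it without BAT WT RT replicate 12, 17 or 18, BAT WT TN replicate 7 or 24, eWAT WT RT replicate 15 or eWAT WT TN replicate 6, 7 or 8, at 1.22 to 1.56 and adjusted p of 0.0515 to 0.0721. Cfd lost it without BAT KO RT replicate 19, BAT KO TN replicate 5 or eWAT KO TN replicate 3 or 4, at 2.83 to 3.06 and adjusted p of 0.0511 to 0.0619. Rbp4 in KO lost it without BAT KO RT replicate 10, BAT KO TN replicate 3 or 5, eWAT KO RT replicate 9 or 16 or eWAT KO TN replicate 4, at -1.69 to -1.52 and adjusted p of 0.0516 to 0.0722, while without BAT KO TN replicate 2 it stood at -2.60.

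**Figure D5:**
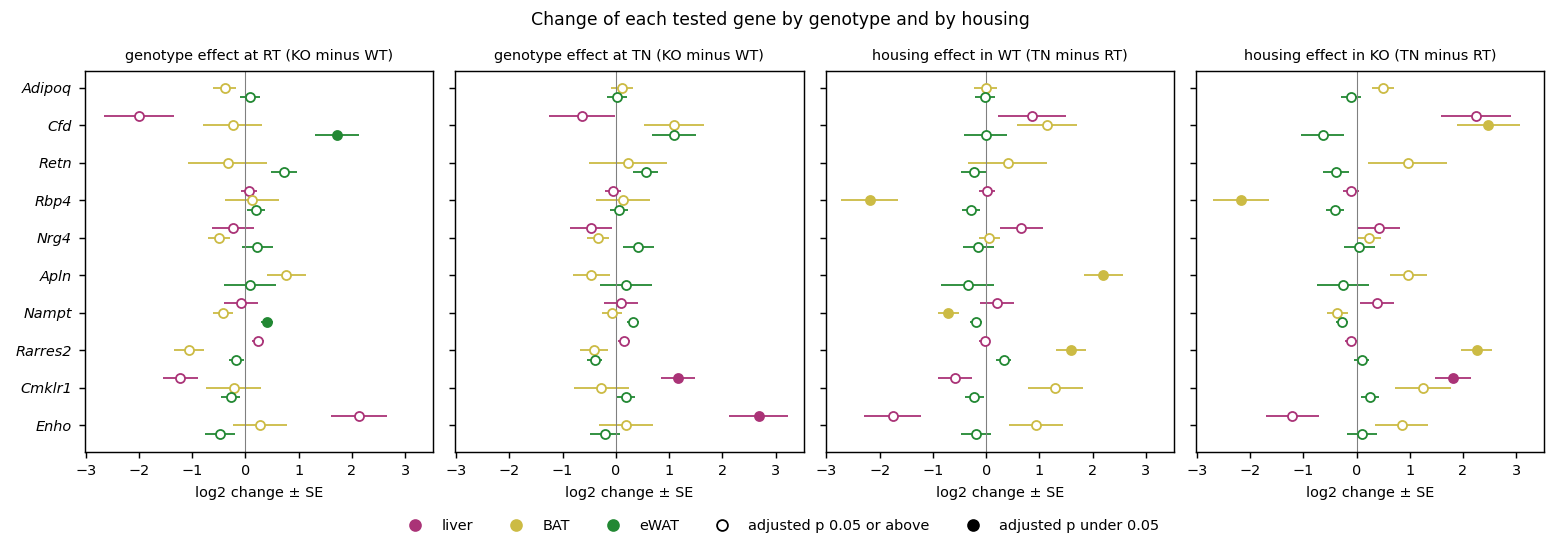
Log2 changes ± SE of the members tested in each tissue, by genotype (KO minus WT, at RT and at TN) and by housing (TN minus RT, in WT and in KO); filled symbols have an edgeR adjusted p under 0.05, and Retn and Apln in liver, which are mostly at 0, are left out. Rbp4 and Rarres2 in BAT move in opposite directions with housing, at -2.19 and 1.60 in WT.

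For each member the genes with the most similar level were looked up over the 16 libraries of the tissue where the member was highest, by Pearson's r of log2 CPM. These are the extremes of 11839 to 12972 genes compared, the libraries share their groups, and the values are a description. Nampt in BAT was closest to Cul1 (r 0.952, Spearman's rho 0.953), Slc30a9 (0.951) and Gid8 (0.944). Cfd in eWAT was closest to Sfxn1 (r 0.942, rho 0.929), Pacsin3 (0.934) and Ivd (0.926), and Retn to Cdkn2c (r 0.911, rho 0.803). Rarres2 in liver was closest to Psmb3 (r 0.915, rho 0.921), Rbp4 to Pcbd1 (r 0.895, rho 0.862) and Nrg4 in BAT to Bmpr1a (r 0.894, rho 0.906). Cmklr1 in eWAT was closest to Hivep2 (r 0.899, rho 0.903), Adipoq to Btg1 (r 0.869, rho 0.821), Enho to Cnnm2 (r 0.852, rho 0.753) and Apln to Shroom4 (r 0.851, rho 0.679). The 3 genes closest to Adipoq in eWAT were not among the 3 closest to Cfd or to Retn.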

How the data were processed

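Total RNA of 48 snap-frozen samples was sequenced in paired ends, per the labels. The authors deposited 1 table per library of whole-number counts per Ensembl gene, not normalized. The submitters' processing notes name fastp, STAR 2.6.1d, featureCounts 1.5.0-p3 and the builds GRCm38 and mm10, with no role or order. Of 56748 identifiers, 52073 were matched to a symbol in GENCODE M21.

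Counts were tested with edgeR 4.0.16 (R 4.3.3, limma 3.58.1): TMM scaling, a low-count filter (filterByExpr, minimum count 10), a robust quasi-likelihood fit with 1 mean per group, within each tissue (16 libraries) or, for comparisons of tissues, over all 48, with Benjamini-Hochberg adjustment over all genes tested. Medians of 29.9, 30.7 and 34.5 M counts per library in liver, BAT and eWAT set the counting precision. CPM and fold changes were computed from the deposited counts. The model was tested on simulated data. Alternatives were DESeq2 1.42.0, RLE scaling, other filters on low counts, fits of only the libraries compared, a replicate block and leaving out each library. Leaving out libraries rich in markers of other tissues was chosen after seeing the data. Libraries of a group differed by more than counting noise in all 72 pairs.

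The members and gene lists were chosen with earlier results of these data known. All members are described; of the lists, at most 4 called genes per comparison are named, and for each member at most the 3 genes most alike. P-values set a difference between groups against the spread between these samples and do not measure the spread itself. Some genes of the lists are not reported here.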

Additional observations from a re-analysis of the deposited data

Results flagged for a closer look

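A sample stood far from the other 3 of its group in 10 of 116 groups of 4 examined, where chance gives about 1 in 20. In 4 of the 10 the other 3 libraries had 0 counts, where 1 library with any count always stands apart, so the number of such groups is not to be read against chance. In liver, KO RT replicate 19 held Adipoq at 3.00 CPM with the others at 0, and Retn at 2.35 CPM with the next at 0.129. Retn in liver WT RT replicate 12 was at 1.02 CPM with the others at 0. Apln was at 0.642 CPM in liver WT RT replicate 18 and at 0.529 CPM in liver KO TN replicate 2, again with the others of each group at 0. Nampt was low in liver WT RT replicate 12, at 62.2 CPM with the next at 96.3, and in liver KO TN replicate 2, at 75.4 CPM with the next at 116. Cfd in BAT KO RT replicate 19 was at 57.4 CPM, the others lying between 219 and 244. Retn in eWAT WT TN replicate 23 was at 1929 CPM with the next at 1165, and Enho in eWAT KO TN replicate 21 at 4.90 CPM with the next at 8.35.

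The edgeR test of the difference between tissues, fitted without a replicate block, called 9 changes. By genotype these were Cfd at RT for eWAT minus liver (3.71, edgeR adjusted p 0.0406), Enho at TN for eWAT minus liver (-2.84, adjusted p 0.0185) and Rarres2 at RT for BAT minus liver (-1.31, adjusted p 0.0236). By housing, BAT minus eWAT, these were Rbp4 (-1.90), Rarres2 (1.27) and Cmklr1 (1.52) in WT and Cfd (3.13), Rbp4 (-1.76) and Rarres2 (2.16) in KO, with adjusted p from 5.68e-06 to 0.0342.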

How the results depend on the processing

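Of 1886 values of 71 member changes under the alternatives run, 1779 kept direction and side of the threshold, 104 lost the call, 3 gained it and 0 changed sign. Of the 71 changes 54 were called in the main fit, and the others had no call to lose. The 71 were picked as changes called by edgeR or without overlap of the groups, with some interactions beside them. Calls gained by other changes, such as that of Retn in eWAT by genotype at RT in DESeq2, are therefore not among the 3. Level differences between tissues, with 37 values each, lost calls only for Enho in BAT minus liver. The totals thus do not describe the genotype and housing calls alone, where most of the losses fell. DESeq2 called 2 members in liver by genotype at RT, by housing in KO, by genotype averaged and by housing averaged, and 1 for the liver interaction. It called 1 in BAT by genotype at RT and averaged, 5 in BAT by housing in KO and 2 in eWAT by housing averaged. For differences between tissues in the genotype change it called 1 for eWAT minus BAT at RT, 3 for eWAT minus liver at RT, 3 for BAT minus liver at RT and 1 for BAT minus liver at TN. With no filter on low counts 1 was called in liver by genotype at TN, 1 in liver by housing averaged, 1 in eWAT by genotype at RT and 0 for eWAT minus liver at RT. Without muscle-rich libraries 1 was called in BAT by genotype at RT (Nrg4), and without hepatocyte-rich libraries 0 in eWAT by genotype at RT and 0 averaged. Fitting only the 2 tissues compared gave 1 for eWAT minus BAT, 2 for eWAT minus liver and 0 for BAT minus liver, all by genotype at RT. The cause of these shifts was not tested.

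Leaving out 1 library gave 1 to 2 members in liver by genotype at TN, 0 to 1 by housing in KO and 0 to 1 by housing averaged. In BAT it gave 0 to 1 by genotype at RT and averaged, 4 to 5 by housing in WT, 3 to 4 in KO and 6 to 7 averaged. In eWAT it gave 0 to 2 by genotype at RT, 2 to 4 averaged and 0 to 1 by housing averaged. For differences between tissues it gave 0 to 1 for eWAT minus liver at RT, 1 to 2 at TN, 0 to 2 for BAT minus liver at RT, 2 to 3 by housing in WT and 1 to 3 in KO, and 9 to 10 for the level of BAT minus liver.

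Replicate numbers are shared only between tissues. Each number stays within a single genotype and housing temperature, and the labels do not say whether it stands for a mouse. Deviations from the group means of same-numbered libraries correlated at -0.34 to 0.14 (BAT and eWAT, n = 11). The values were -0.06 to 0.06 for BAT and liver (n = 13) and -0.06 to 0.07 for eWAT and liver (n = 11). Such correlations between different tissues cannot decide whether same-numbered libraries came from the same mouse. The main fit treated all libraries as independent, and a replicate block was run as an alternative. With the replicate block 0 members were called for eWAT minus liver at RT and at TN, 0 for BAT minus liver at RT, 0 for BAT minus eWAT by housing in WT and 2 in KO. Of the 9 differences between tissues called without it, 7 were then not called: Cfd at RT (adjusted p 0.223) and Enho at TN (0.491) for eWAT minus liver, Rarres2 at RT for BAT minus liver (0.208), and by housing Cmklr1 (0.0887), Rarres2 (0.0528) and Rbp4 (0.0537) in WT and Cfd in KO (0.154). The level of Enho for BAT minus liver was not called either (-0.48, 0.116). Liver levels of Apln, Retn and Adipoq are near the limit of 3 counts per library and carry no fold change.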
